A study of Mus musculus with 6 samples.

Results

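Amino acid breakdown was described at the level of messenger RNA in primary mouse hepatocytes, the main functional cell type of liver, isolated and held in culture. The set was chosen by name and by role, with earlier results of these data known, so its shares below are a description. It holds 51 genes, among them transaminases and enzymes that degrade aromatic amino acids, tryptophan, branched-chain amino acids, histidine, proline, lysine and glycine. Of the 51, 50 matched a gene row and 48 had enough reads to be tested, out of 22609 gene rows and 12301 tested genes in all. Gstz1b matched no row and is not analysed here, while Bcat1 and Gadl1 did not pass the filter on low counts. The 3 samples of the one arm received 20 µg/mL LRG1, leucine-rich alpha-2-glycoprotein 1, a secreted glycoprotein. The 3 samples of the other arm received phosphate-buffered saline (PBS), and exposure lasted 16 h in both. All cells came from wild-type C57BL/6 male mice aged 4 months. The labels do not say whether the samples of an arm came from separate mice or separate cultures, so the p-values reflect variation among these 6 samples and it may be technical in part.

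Amino acids in excess of what protein synthesis needs are broken down mainly in the liver. Transaminases first pass the amino group to alpha-ketoglutarate, and the nitrogen leaves as urea, while the carbon skeletons enter glucose production, ketone body formation or the citric acid cycle. Several of these enzymes, such as tyrosine aminotransferase and serine dehydratase, are known for their strong response to glucocorticoids, glucagon and feeding in rodent liver. Branched-chain amino acids are an exception, since their transamination takes place largely outside the hepatocyte.

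The libraries held between 18625748 and 23036332 counts in genes. Across genes, log2 CPM (read counts put on one depth scale, with no division by length) correlated at a Pearson r of 0.995 to 0.996 between replicates of an arm and of 0.958 to 0.962 between arms. Of 10 hepatocyte markers all were detected, and their summed level was 49180 to 50090 CPM with LRG1 and 49320 to 50330 CPM with PBS, most of it Alb and Trf. Single markers differed: 5 of 10 were lower (Cps1, Fgb, Apoa1, Hnf4a and Ass1), 2 were higher (Trf and Serpina1e) and 3 did not pass. Of all tested genes, 25.8% were lower and 25.5% higher. The lowest log2 fold change of these markers was that of Cps1 (-2.11), from 8.44 ± 1.58 CPM with LRG1 and 36.3 ± 2.81 CPM with PBS. Markers of other liver cells were present as well. The summed level of 10 stellate cell and fibroblast markers was 158 to 168 CPM with LRG1 and 59.7 to 68.2 CPM with PBS, a difference that lay mostly in Col1a1 (110.2 ± 4.96 CPM with LRG1 and 11.2 ± 2.30 CPM with PBS). Of the 8 tested among them, 2 were higher, 1 was lower and 5 did not pass, with a median log2 fold change of -0.06. For 9 macrophage markers the sum was 183 to 208 CPM with LRG1 and 220.0 to 266 CPM with PBS, most of it Cd68, and for 8 sinusoidal endothelial markers it was 38.8 to 42.2 CPM with LRG1 and 46.3 to 48.2 CPM with PBS. For 7 cholangiocyte markers it was 4362 to 4680 CPM with LRG1 and 4478 to 4662 CPM with PBS, nearly all of it Spp1. None of these markers was at 0 in every library, although Cftr had 1 read and Cd163 2 reads in all, and the part of these markers' cells, hepatocytes included, in the values below was not tested.

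Amino acid catabolism genes were lower in the cells given LRG1, with few exceptions. Of the 48 tested genes, 42 (87.5%) were lower at an adjusted p under 0.05, where 25.8% of all tested genes were. None was higher by edgeR's quasi-likelihood test, against 25.5% of all tested genes, and the same count of 0 was obtained with DESeq2 and with limma-voom. None was at least 2-fold higher (4.07% of all tested genes), and for none did each LRG1 library lie above each PBS library (29% of all tested genes). At an unadjusted p under 0.05, 43 had a negative and 1 a positive log2 fold change. For 41 of the 48 (85.4%) each LRG1 library lay below each PBS library, where this held for 28.6% of all tested genes. At least 2-fold lower values were found for 18 genes (37.5%, against 5.43% of all tested genes), and 4 of these were at least 4-fold lower, namely Hgd, Tat, Hal and Sds. Another 15 genes were lower by less than 1.5-fold. The shares of all tested genes at the unadjusted cut, at 4-fold and under 1.5-fold were not computed. The median log2 fold change of the set was -0.69, with quartiles at -1.56 and -0.25, while that of all tested genes was 0.0093. Summed over the 50 genes, the level was 1510 to 1599 CPM with LRG1 and 2660 to 2791 CPM with PBS. In bulk RNA, fewer cells of a type and less RNA per cell cannot be told apart.

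**Figure D1:**
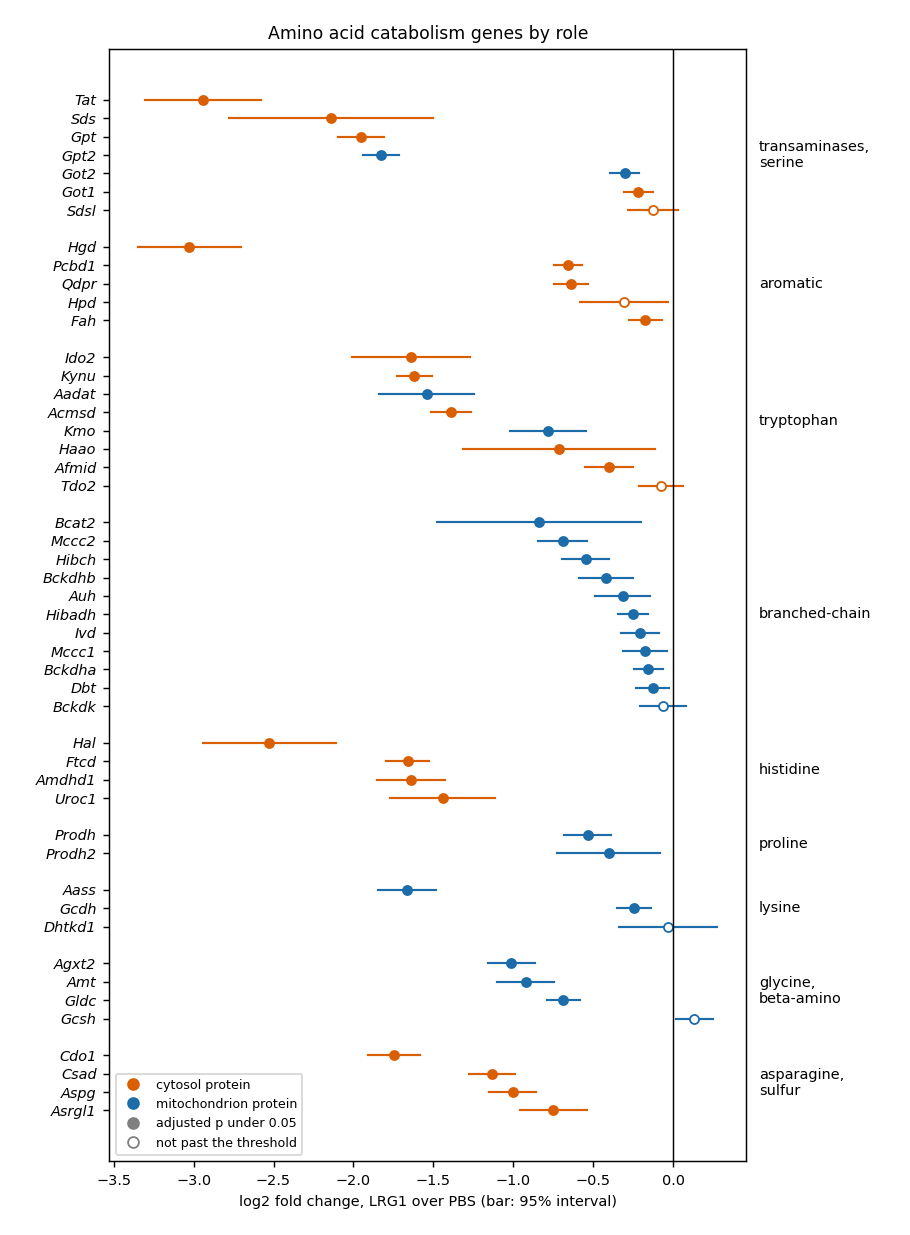
Log2 fold change (LRG1 over PBS, horizontal axis) of the 48 tested genes, arranged by role; bars are 95% intervals, filled points have an adjusted p under 0.05 and colours give the compartment of the protein. All points except that of Gcsh lie left of 0, and the histidine genes stand together between -2.53 and -1.44.

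The size of the difference varied by role. The histidine genes had a median log2 fold change of -1.65, the transaminases and serine enzymes -1.83, the asparagine and sulfur amino acid genes -1.07 and the tryptophan genes -1.09. The median was -0.25 for the branched-chain genes, of which 10 of 11 were lower and none by 2-fold, and -0.24 for the 3 lysine genes, of which Aass was over 3-fold lower. Grouped by where the protein works, 14 of 24 tested genes of cytosolic enzymes and 4 of 24 of mitochondrial ones were at least 2-fold lower. Of all tested genes 5.43% were. The medians were -1.26 for genes of cytosolic and -0.41 for genes of mitochondrial enzymes. All 11 tested branched-chain genes are in the mitochondrial group, and none of them was 2-fold lower, so the groupings by role and by compartment are not separate. Neither grouping was tested. Across the 48 genes, the PBS level per kilobase of exon and the log2 fold change had a Spearman rho of 0.160, a description across genes that share their libraries.

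Promoter windows show the sequence at the start of a few of these genes. They were chosen for the 3 lowest log2 fold changes with a window in the table (Hgd, Tat and Hal), for a match to an HNF4 motif (Aadat), and for the highest value (Gcsh). Each runs from 250 bases before to 50 bases after the annotated start, on the strand of the gene, and was taken from RefSeq on build GRCm38.p6, which is not the build the authors aligned to. Capitals mark matches to the motifs described after the sequences. Hgd lies at chr16:37579903-37580202 on the plus strand, Tat at chr8:109990186-109990485 (plus), Hal at chr10:93488518-93488817 (plus), Aadat at chr8:60505874-60506173 (plus) and Gcsh at chr8:116993449-116993748 (minus).
Hgd: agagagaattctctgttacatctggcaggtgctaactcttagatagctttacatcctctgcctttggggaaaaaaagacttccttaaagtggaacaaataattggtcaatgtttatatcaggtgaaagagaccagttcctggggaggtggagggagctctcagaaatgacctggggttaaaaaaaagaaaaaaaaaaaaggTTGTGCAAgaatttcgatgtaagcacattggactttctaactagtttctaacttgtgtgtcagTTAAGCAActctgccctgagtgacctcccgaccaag
Tat: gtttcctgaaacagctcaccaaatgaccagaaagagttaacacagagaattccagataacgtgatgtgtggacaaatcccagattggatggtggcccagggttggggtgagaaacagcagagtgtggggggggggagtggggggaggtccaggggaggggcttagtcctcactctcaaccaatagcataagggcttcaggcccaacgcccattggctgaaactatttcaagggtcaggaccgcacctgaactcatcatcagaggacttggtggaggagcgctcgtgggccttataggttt
Hal: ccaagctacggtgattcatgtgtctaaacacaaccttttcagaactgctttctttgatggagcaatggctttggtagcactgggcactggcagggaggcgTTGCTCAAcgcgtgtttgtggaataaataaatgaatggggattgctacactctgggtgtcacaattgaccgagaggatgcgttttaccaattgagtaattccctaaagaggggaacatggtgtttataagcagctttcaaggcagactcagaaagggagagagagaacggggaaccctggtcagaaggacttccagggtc
Aadat: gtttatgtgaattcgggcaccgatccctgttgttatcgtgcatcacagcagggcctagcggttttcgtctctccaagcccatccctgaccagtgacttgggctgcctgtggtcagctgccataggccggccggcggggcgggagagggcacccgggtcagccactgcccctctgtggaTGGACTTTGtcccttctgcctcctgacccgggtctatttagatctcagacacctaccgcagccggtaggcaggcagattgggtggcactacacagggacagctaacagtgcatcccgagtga
Gcsh: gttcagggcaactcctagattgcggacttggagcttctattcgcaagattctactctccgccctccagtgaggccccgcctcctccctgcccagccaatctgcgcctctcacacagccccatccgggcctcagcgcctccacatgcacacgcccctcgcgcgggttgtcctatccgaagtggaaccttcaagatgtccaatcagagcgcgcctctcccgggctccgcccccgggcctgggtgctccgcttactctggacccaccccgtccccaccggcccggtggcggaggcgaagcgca

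Motifs of liver regulators were searched on both strands in all 32851 windows of the table, 48 of which belonged to 43 genes of the set. TTGCNNAA, the motif of C/EBP factors, was found in 7 of the 48 windows (14.6%, against 10.8% of all windows), including both Hgd matches, which begin 49 bases before and at base 15 after the start, and the Hal match, which begins 150 bases before it. CAAAGTCCA, a form of the direct repeat bound by HNF4, was found in 3 windows (6.25%, against 0.475%), 1 of Aadat and both of Agxt2. The other form, CAAAGGTCA, was found in none (0.478% of all windows), and nor was TGACGTCA, the cyclic AMP response element (1.79%). AGAACA, a half-site of the glucocorticoid receptor, was in 5 windows (10.4%, against 19.0%). No 2 matches overlapped in the printed windows, and those of Tat and Gcsh held none of these letters. A match describes letters and does not show that a factor binds there.

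Transaminases and the serine enzymes, which remove amino groups, held both large and small differences. Of these 7 genes, 6 were lower, against 25.8% of all tested genes. Tat encodes tyrosine aminotransferase, the entry to tyrosine breakdown. Its level was 1.39, 1.17 and 1.01 CPM in LRG1 replicates 1 to 3, against 7.84, 10.5 and 9.23 CPM in PBS replicates 1 to 3 (log2 fold change -2.94, SE 0.18, adjusted p = 1.05e-12). The LRG1 libraries held 20 to 28 reads of it and the PBS libraries 155 to 195. Sds, serine dehydratase, which turns serine and threonine into keto acids and ammonia, was scarce in both arms. It had 0.349, 0.389 and 0.353 CPM in LRG1 replicates 1 to 3, against 1.32, 1.67 and 1.91 CPM in PBS replicates 1 to 3 (log2 fold change -2.14, SE 0.31, adjusted p = 3.23e-06), from 7 to 9 reads in LRG1 libraries and 26 to 36 in PBS libraries. The groups did not overlap for either gene, but 29.6% of the Sds exon length overlaps other genes on the opposite strand, mostly Plbd2, whose level did not pass the threshold (212 ± 8.65 CPM with LRG1 and 222 ± 10.05 CPM with PBS). Without knowledge of the strand setting, reads of such pairs cannot be told apart.

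Alanine aminotransferase is encoded by Gpt in the cytosol and Gpt2 in mitochondria, which convert alanine to pyruvate, and both transcripts were over 3-fold lower. Gpt had 18.4, 16.2 and 16.6 CPM in LRG1 replicates 1 to 3, against 64.3, 61.5 and 72.3 CPM in PBS replicates 1 to 3 (log2 fold change -1.95, SE 0.070, adjusted p = 9.57e-17). Gpt2 had 182, 161 and 168 CPM in LRG1 replicates 1 to 3, against 637, 545 and 634 CPM in PBS replicates 1 to 3 (log2 fold change -1.83, SE 0.054, adjusted p = 2.44e-18). For both genes each LRG1 library lay below each PBS library. Per kilobase of exon, the level of Gpt2 was 30.2 CPM per kilobase with LRG1 and 107 with PBS, and that of Gpt was 5.80 CPM per kilobase with LRG1 and 22.5 with PBS, so the mitochondrial form was the more abundant transcript in both arms. The aspartate aminotransferases differed far less, with log2 fold changes of -0.22 for cytosolic Got1 and -0.30 for mitochondrial Got2 (adjusted p = 0.000202 and 3.95e-06). For Got2, 25.6% of the distinct 50-base windows of its transcripts also occur in other annotated transcripts, a pseudogene among them, so its level is uncertain. Sdsl, a relative of Sds, did not pass. It had 20.6, 20.0 and 18.6 CPM in LRG1 replicates 1 to 3, against 20.5, 22.0 and 22.1 CPM in PBS replicates 1 to 3, overlapping groups and a 95% interval of the log2 fold change of -0.28 to 0.029 (adjusted p = 0.167).

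Phenylalanine and tyrosine share a route of breakdown that ends in fumarate and acetoacetate. In this group 4 of 5 tested genes were lower, against 25.8% of all tested genes. Hgd, homogentisate dioxygenase, which opens the aromatic ring, had the lowest log2 fold change of the whole set. It had 1.49, 1.43 and 1.06 CPM in LRG1 replicates 1 to 3, against 10.5, 10.5 and 11.6 CPM in PBS replicates 1 to 3 (log2 fold change -3.03, SE 0.15, adjusted p = 6.38e-14), an 8.15-fold lower level with LRG1. The LRG1 libraries held 21 to 33 reads of Hgd and the PBS libraries 195 to 219. The neighbouring enzymes had smaller values. Hpd, 4-hydroxyphenylpyruvate dioxygenase, which makes the substrate of Hgd, had 9.26, 6.78 and 7.81 CPM in LRG1 replicates 1 to 3, against 8.05, 11.4 and 10.03 CPM in PBS replicates 1 to 3 (log2 fold change -0.31, SE 0.13, adjusted p = 0.0567). Its groups overlapped, and it was past the threshold in 3 of 13 alternatives, those with no filter on low counts, without LRG1 replicate 1 and without PBS replicate 1 (adjusted p of 0.0101 to 0.295 over the 13). Fah, fumarylacetoacetate hydrolase, the last enzyme of the chain, had 79.7, 73.3 and 80.5 CPM in LRG1 replicates 1 to 3, against 84.0, 87.4 and 92.0 CPM in PBS replicates 1 to 3 (log2 fold change -0.17, SE 0.049, adjusted p = 0.00494). Its groups did not overlap, and its call was lost without LRG1 replicate 2 (adjusted p = 0.0546, within 0.00208 to 0.0546 over all alternatives).

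Both genes that recycle tetrahydrobiopterin, the cofactor of aromatic amino acid hydroxylation, were lower by similar amounts. Pcbd1, a carbinolamine dehydratase, had 84.6, 80.9 and 79.6 CPM in LRG1 replicates 1 to 3, against 128, 128 and 131 CPM in PBS replicates 1 to 3 (log2 fold change -0.66, SE 0.043, adjusted p = 4.85e-12). Qdpr, dihydropteridine reductase, had 53.8, 53.0 and 56.6 CPM in LRG1 replicates 1 to 3, against 80.1, 86.9 and 87.7 CPM in PBS replicates 1 to 3 (log2 fold change -0.64, SE 0.050, adjusted p = 1.75e-10). The groups did not overlap for either gene. A non-coding transcript overlaps 18.6% of the Qdpr exon length on the opposite strand.

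**Figure D2:**
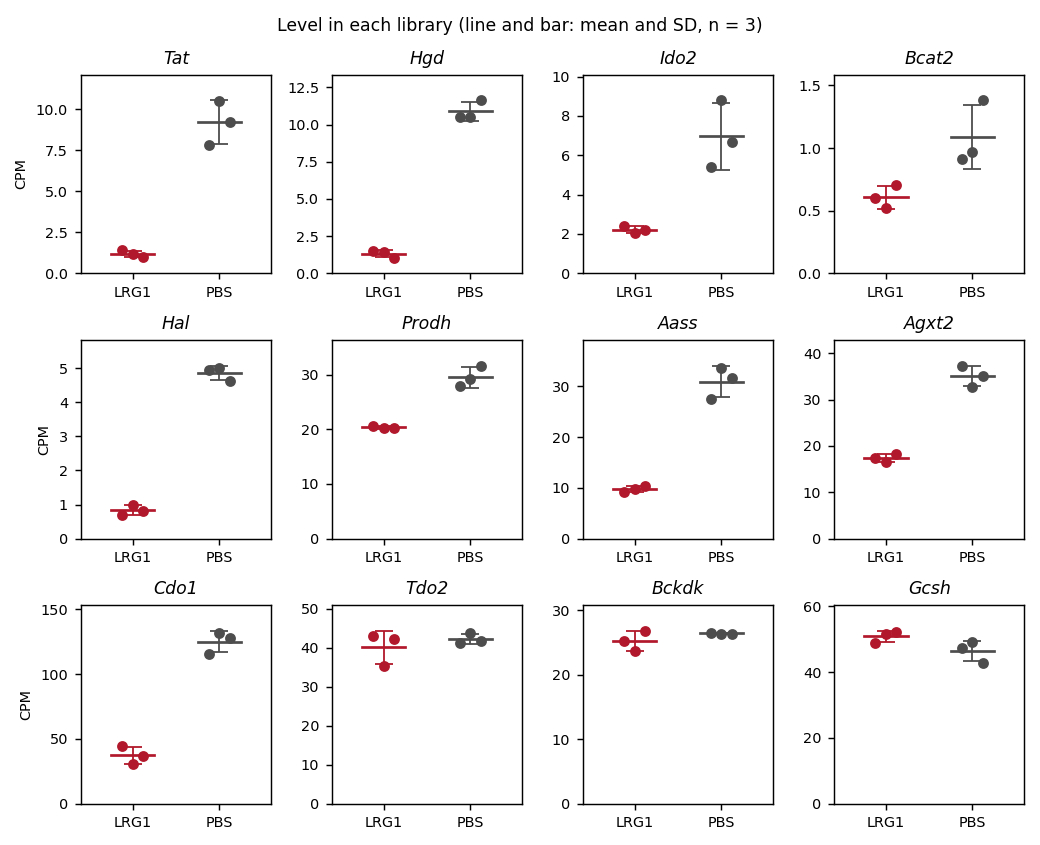
CPM in each library (vertical axis from 0; line and bar are mean and SD, n = 3) for the gene with the lowest log2 fold change of each role group and for Tdo2, Bckdk and Gcsh, with LRG1 left of PBS. In the first 9 panels every LRG1 point lies below every PBS point, while in the last 3 the groups overlap.

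Tryptophan is opened to kynurenine, which is then oxidised to carbon dioxide or turned into a precursor of NAD. Of 8 genes, 7 were lower (25.8% of all tested genes were), and the exception was the entry enzyme of liver. Tdo2, tryptophan dioxygenase, had 42.9, 35.3 and 42.2 CPM in LRG1 replicates 1 to 3, against 41.3, 43.9 and 41.7 CPM in PBS replicates 1 to 3 (log2 fold change -0.08, SE 0.067, adjusted p = 0.353). The groups overlapped, and the 95% interval was -0.22 to 0.061. Ido2, a second enzyme for the same reaction and far scarcer per kilobase of exon (0.612 CPM per kilobase with LRG1 and 1.92 with PBS, where Tdo2 had 10.3 CPM per kilobase with LRG1 and 10.9 with PBS), was lower. Ido2 had 2.39, 2.07 and 2.22 CPM in LRG1 replicates 1 to 3, against 5.41, 8.78 and 6.69 CPM in PBS replicates 1 to 3 (log2 fold change -1.64, SE 0.18, adjusted p = 4.31e-08).

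Further along the pathway, the genes that act on kynurenine and its products had differences of several sizes. Kynu, kynureninase, had 27.5, 25.6 and 28.0 CPM in LRG1 replicates 1 to 3, against 83.7, 81.5 and 83.4 CPM in PBS replicates 1 to 3 (log2 fold change -1.62, SE 0.053, adjusted p = 1.9e-17). Aadat, which transaminates kynurenine and also the lysine product aminoadipate, had 4.93, 4.19 and 3.07 CPM in LRG1 replicates 1 to 3, against 12.6, 10.1 and 12.9 CPM in PBS replicates 1 to 3 (log2 fold change -1.54, SE 0.14, adjusted p = 3.2e-09). Both were clear of overlap, and Aadat had 61 to 99 reads in the LRG1 libraries. Acmsd, whose product is directed to oxidation and away from NAD synthesis, had a log2 fold change of -1.39 (SE 0.061), from 21.8 ± 0.635 CPM with LRG1 and 57.2 ± 3.12 CPM with PBS (SD, n = 3). Kmo, kynurenine monooxygenase, and Afmid, the formamidase before it, had log2 fold changes of -0.78 and -0.41. Of the 50-base windows of Afmid, 41.3% also occur in other annotated transcripts, mainly a gene model on the same strand, so its level is uncertain. Haao, hydroxyanthranilate dioxygenase, was near the limit of detection, with 0.647, 0.950 and 0.605 CPM in LRG1 replicates 1 to 3, against 1.32, 0.970 and 1.38 CPM in PBS replicates 1 to 3, or 12 to 22 reads with LRG1 and 18 to 26 with PBS. Its log2 fold change of -0.71 (adjusted p = 0.0435) lost the call in 7 of 12 alternatives, among them those without LRG1 replicate 1 or 3 and without PBS replicate 1 or 3, with an adjusted p of 0.0262 to 0.144.

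Branched-chain amino acids pass through a transaminase, the mitochondrial branched-chain keto acid dehydrogenase and then separate routes for leucine, valine and isoleucine. Of 11 tested genes 10 were lower (25.8% of all tested genes were), all by less than 2-fold. The transaminases were scarce in both arms. Bcat2, the mitochondrial form, had 0.598, 0.518 and 0.705 CPM in LRG1 replicates 1 to 3, against 0.911, 0.970 and 1.38 CPM in PBS replicates 1 to 3 (log2 fold change -0.84, SE 0.31, adjusted p = 0.0255), or 12 to 14 reads with LRG1 and 18 to 26 with PBS. Its call was lost in 4 of 12 alternatives, with DESeq2 and without LRG1 replicate 1, LRG1 replicate 2 or PBS replicate 3, and the adjusted p ran from 0.0237 to 0.156. On the opposite strand 15.9% of its exon length overlaps 0610005C13Rik, which was lower too (0.195 ± 0.176 CPM with LRG1 and 1.83 ± 0.485 CPM with PBS). Bcat1, the cytosolic form, was not tested, having 8, 3 and 3 reads in LRG1 replicates 1 to 3 and 2, 1 and 2 reads in PBS replicates 1 to 3. In CPM each LRG1 library lay above each PBS library for Bcat1, at counts too low to test.

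Subunits of the keto acid dehydrogenase and its regulator differed little between the arms. The log2 fold changes of the E1 subunits were -0.16 for Bckdha and -0.42 for Bckdhb (adjusted p = 0.00458 and 0.000153). Dbt, the E2 subunit, had a value of -0.13 (adjusted p = 0.0343), which lost the call in 7 of 13 alternatives, including those without LRG1 replicate 1 or 2 and without PBS replicate 1 or 3 (0.0221 to 0.117). Bckdk, the kinase that inhibits the complex, had 25.3, 23.8 and 26.8 CPM in LRG1 replicates 1 to 3, against 26.5, 26.4 and 26.4 CPM in PBS replicates 1 to 3 (log2 fold change -0.07, SE 0.068, adjusted p = 0.449). Its groups overlapped, with a 95% interval of -0.21 to 0.076. B3gnt8 lies opposite 61.7% of the Bckdha exon length, but it had 1 read in a single library.

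Genes of the leucine and valine steps after the dehydrogenase were lower by up to 1.62-fold. Mccc2, the beta subunit of methylcrotonyl-CoA carboxylase in leucine breakdown, had 20.2, 17.1 and 18.8 CPM in LRG1 replicates 1 to 3, against 29.0, 30.7 and 30.8 CPM in PBS replicates 1 to 3 (log2 fold change -0.69, SE 0.074, adjusted p = 3.07e-08). Its partner Mccc1, the alpha subunit, had a log2 fold change of -0.18 (adjusted p = 0.0308) and overlapping groups. The Mccc1 call was lost in 6 of 13 alternatives, including those without LRG1 replicate 1 or 2 and without PBS replicate 1 or 2 (0.00453 to 0.139). The 95% intervals of the log2 fold changes of these partner subunits, -0.85 to -0.54 for Mccc2 and -0.32 to -0.038 for Mccc1, did not overlap, though the difference itself was not tested. Hibch, which releases 3-hydroxyisobutyrate in valine breakdown, had 20.8, 24.1 and 23.6 CPM in LRG1 replicates 1 to 3, against 33.9, 34.5 and 31.8 CPM in PBS replicates 1 to 3 (log2 fold change -0.55, SE 0.070, adjusted p = 5.97e-07). Ivd, Auh and Hibadh, which act on isovaleryl-CoA, methylglutaconyl-CoA and hydroxyisobutyrate, had values of -0.21, -0.32 and -0.25, all past the threshold.

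Histidine breakdown was the only role group of at least 3 genes in which all members were at least 2-fold lower and no group overlapped. Of all tested genes, 5.43% were at least 2-fold lower and 28.6% had each LRG1 library below each PBS library. Hal, histidine ammonia-lyase, opens the pathway. It had 0.697, 0.993 and 0.806 CPM in LRG1 replicates 1 to 3, against 4.96, 5.01 and 4.62 CPM in PBS replicates 1 to 3 (log2 fold change -2.53, SE 0.20, adjusted p = 1.87e-10), from 14 to 23 reads with LRG1 and 87 to 98 with PBS. Uroc1, urocanate hydratase, acts next and had 5.03, 2.68 and 3.78 CPM in LRG1 replicates 1 to 3, against 9.21, 10.7 and 11.04 CPM in PBS replicates 1 to 3 (log2 fold change -1.44, SE 0.16, adjusted p = 4.87e-08). The LRG1 libraries of Uroc1 differed among themselves, replicate 2 being the lowest, but all lay below the PBS libraries. Amdhd1, imidazolonepropionase, had 5.03, 5.14 and 4.89 CPM in LRG1 replicates 1 to 3, against 15.4, 15.4 and 16.2 CPM in PBS replicates 1 to 3 (log2 fold change -1.64, SE 0.10, adjusted p = 2.62e-12). Ftcd, which passes the last fragment of histidine to tetrahydrofolate, had 38.0, 32.4 and 37.2 CPM in LRG1 replicates 1 to 3, against 117, 102 and 120.1 CPM in PBS replicates 1 to 3 (log2 fold change -1.66, SE 0.064, adjusted p = 3.47e-16). Per kilobase of exon Ftcd was the most abundant of the 4 transcripts (11.2 CPM per kilobase with LRG1 and 35.5 with PBS) and Hal the least (0.150 CPM per kilobase with LRG1 and 0.876 with PBS).

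Proline and hydroxyproline are oxidised in mitochondria by separate dehydrogenases, and both genes were lower, as were 25.8% of all tested genes. Prodh, proline dehydrogenase, had 20.7, 20.3 and 20.2 CPM in LRG1 replicates 1 to 3, against 27.9, 29.2 and 31.7 CPM in PBS replicates 1 to 3 (log2 fold change -0.54, SE 0.070, adjusted p = 7.9e-07). Prodh2, hydroxyproline dehydrogenase, had 4.43, 3.50 and 4.08 CPM in LRG1 replicates 1 to 3, against 4.50, 6.31 and 5.04 CPM in PBS replicates 1 to 3 (log2 fold change -0.40, SE 0.16, adjusted p = 0.0342). For Prodh2 the highest LRG1 library lay just below the lowest PBS library, and its call was lost in 5 of 13 alternatives (0.0153 to 0.220), including those without LRG1 replicate 2 or 3 and without PBS replicate 2.

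Of the 3 lysine genes of the set 2 were lower (25.8% of all tested genes were), the entry enzyme by the larger amount. Aass, the bifunctional enzyme that joins lysine to alpha-ketoglutarate and splits the product, had 9.16, 9.67 and 10.4 CPM in LRG1 replicates 1 to 3, against 27.5, 33.7 and 31.6 CPM in PBS replicates 1 to 3 (log2 fold change -1.67, SE 0.088, adjusted p = 1.26e-13). Gcdh, glutaryl-CoA dehydrogenase, had 59.9, 57.3 and 59.9 CPM in LRG1 replicates 1 to 3, against 68.8, 74.1 and 66.9 CPM in PBS replicates 1 to 3 (log2 fold change -0.24, SE 0.051, adjusted p = 0.000303). Dhtkd1, a subunit of the oxoadipate dehydrogenase between them, had 4.53, 3.97 and 3.73 CPM in LRG1 replicates 1 to 3, against 4.10, 4.04 and 4.35 CPM in PBS replicates 1 to 3 (log2 fold change -0.03, SE 0.15, adjusted p = 0.878). The Dhtkd1 groups overlapped, and its 95% interval was -0.34 to 0.27. The 95% interval of Aass was -1.85 to -1.48, which does not reach that of Gcdh or Dhtkd1 but overlaps that of Aadat (-1.84 to -1.24), which also acts in lysine breakdown; these differences were not tested.

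Glycine is split by a mitochondrial complex of several proteins. Of its 3 genes in the set 2 were lower (25.8% of all tested genes were) and 1 did not pass. Amt, the aminomethyltransferase (T protein), had 11.9, 10.5 and 10.7 CPM in LRG1 replicates 1 to 3, against 20.6, 19.9 and 22.2 CPM in PBS replicates 1 to 3 (log2 fold change -0.92, SE 0.086, adjusted p = 3.18e-09). Gldc, the decarboxylase (P protein), had 64.7, 70.1 and 64.6 CPM in LRG1 replicates 1 to 3, against 111, 100.5 and 109 CPM in PBS replicates 1 to 3 (log2 fold change -0.69, SE 0.050, adjusted p = 4.13e-11). Gcsh, the lipoyl carrier (H protein), had 49.0, 51.6 and 52.1 CPM in LRG1 replicates 1 to 3, against 47.3, 49.1 and 42.9 CPM in PBS replicates 1 to 3 (log2 fold change 0.13, SE 0.057, adjusted p = 0.0582). Of the 48 tested genes, only Gcsh had a positive log2 fold change. Its groups overlapped in part, and it was past the threshold in the higher direction without PBS replicate 2 (log2 fold change 0.17, adjusted p = 0.0254, within 0.0254 to 0.307 over 13 alternatives). Agxt2, a mitochondrial aminotransferase that uses glyoxylate and acts on beta-amino acids, had 17.4, 16.6 and 18.2 CPM in LRG1 replicates 1 to 3, against 37.3, 32.8 and 35.1 CPM in PBS replicates 1 to 3 (log2 fold change -1.01, SE 0.072, adjusted p = 2.5e-11). Its groups did not overlap.

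Asparagine and sulfur amino acid genes were all lower where tested, 4 of 4, with no overlap. Of all tested genes, 25.8% were lower and 28.6% had each LRG1 library below each PBS library. Cdo1, cysteine dioxygenase, which commits cysteine to oxidation, had 44.3, 30.7 and 37.1 CPM in LRG1 replicates 1 to 3, against 116, 131 and 128 CPM in PBS replicates 1 to 3 (log2 fold change -1.75, SE 0.079, adjusted p = 7e-15). Csad, cysteine sulfinate decarboxylase, which leads on to taurine, had 20.1, 18.1 and 19.8 CPM in LRG1 replicates 1 to 3, against 39.3, 43.9 and 44.1 CPM in PBS replicates 1 to 3 (log2 fold change -1.14, SE 0.069, adjusted p = 1.68e-12). The transcripts of both enzymes of the route from cysteine to hypotaurine were thus at least 2-fold lower. Zfp740 overlaps 7.30% of the Csad exon length on the opposite strand, and it differed the other way (69.4 ± 2.70 CPM with LRG1 and 61.4 ± 2.35 CPM with PBS). Aspg, an asparaginase, had 16.1, 14.7 and 15.8 CPM in LRG1 replicates 1 to 3, against 32.1, 30.5 and 30.8 CPM in PBS replicates 1 to 3 (log2 fold change -1.004, SE 0.071, adjusted p = 2.6e-11). Asrgl1, an asparaginase and isoaspartyl peptidase, had 8.96, 8.12 and 7.96 CPM in LRG1 replicates 1 to 3, against 15.2, 14.1 and 12.8 CPM in PBS replicates 1 to 3 (log2 fold change -0.75, SE 0.10, adjusted p = 1.13e-06). Gadl1, a relative of Csad, had 0 counts in all 6 libraries, which allows a level of up to 0.130 to 0.162 CPM per library (3 counts, counting error only).

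**Figure D3:**
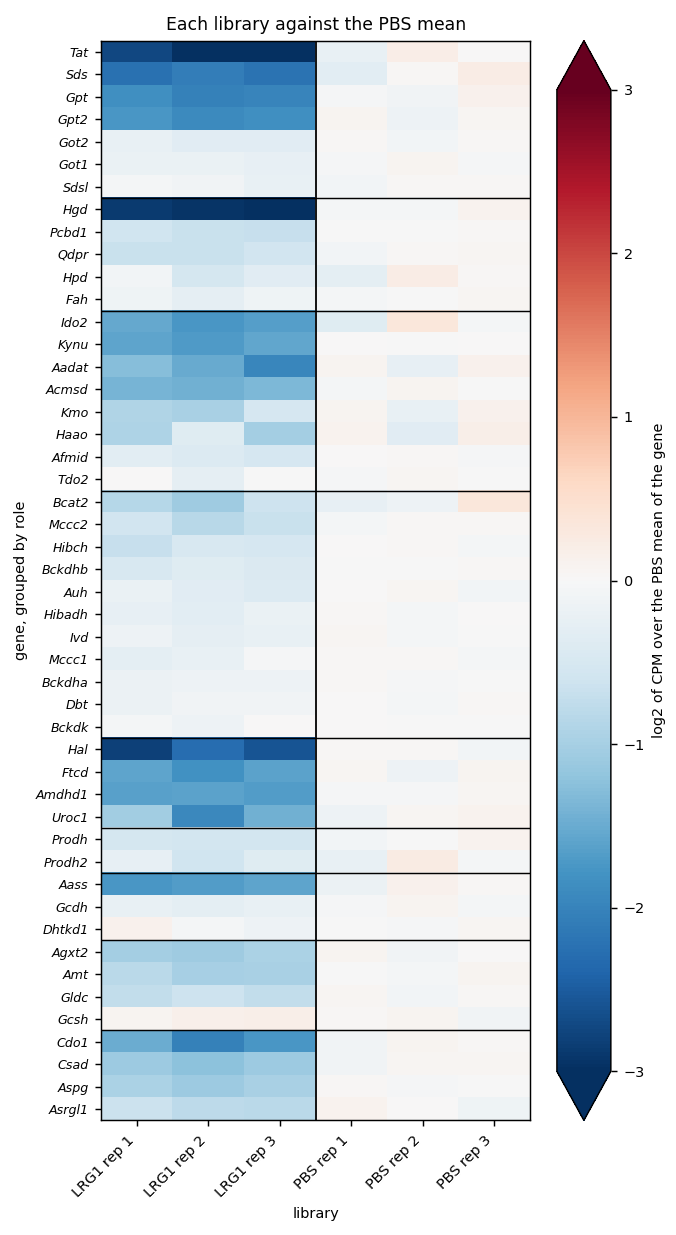
Log2 of the CPM of each library over the PBS mean of the gene (colour, saturated beyond -3 and 3) for the 48 tested genes in rows, with LRG1 replicates in the left 3 columns and PBS replicates in the right 3. The LRG1 columns resemble each other, with the darkest cells at Hgd, Tat and Hal, and the branched-chain block is pale.

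Other genes of amino acid breakdown, from a list of 46 outside the set, went mostly the same way. Like the set, this list was chosen with earlier results of these data known. Of 44 tested, 33 (75%) were lower, 4 were higher and 7 did not pass, with a median log2 fold change of -0.41. Of all tested genes, 25.8% were lower and 25.5% higher. The lowest values were those of Pck1, the gluconeogenic phosphoenolpyruvate carboxykinase (0.384 ± 0.102 CPM with LRG1 and 2.18 ± 0.385 CPM with PBS, log2 fold change -2.49), and Cbs, cystathionine beta-synthase of the transsulfuration pathway (36.4 ± 1.54 CPM with LRG1 and 131 ± 8.07 CPM with PBS, -1.85). Agxt, the aminotransferase that clears glyoxylate, was 2.84-fold higher. It had 16.3, 16.7 and 13.8 CPM in LRG1 replicates 1 to 3, against 5.01, 6.74 and 4.78 CPM in PBS replicates 1 to 3 (log2 fold change 1.505, SE 0.12, adjusted p = 3.01e-10). Ppm1k, the phosphatase that activates the branched-chain keto acid dehydrogenase and opposes Bckdk, had 13.8, 13.3 and 14.5 CPM in LRG1 replicates 1 to 3, against 8.45, 10.7 and 9.07 CPM in PBS replicates 1 to 3 (log2 fold change 0.56, SE 0.10, adjusted p = 6.29e-05). Both were higher in 3 of 3 LRG1 libraries than in any PBS library. Oat, ornithine aminotransferase, was also higher (log2 fold change 0.16), with overlapping groups.

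**Figure D4:**
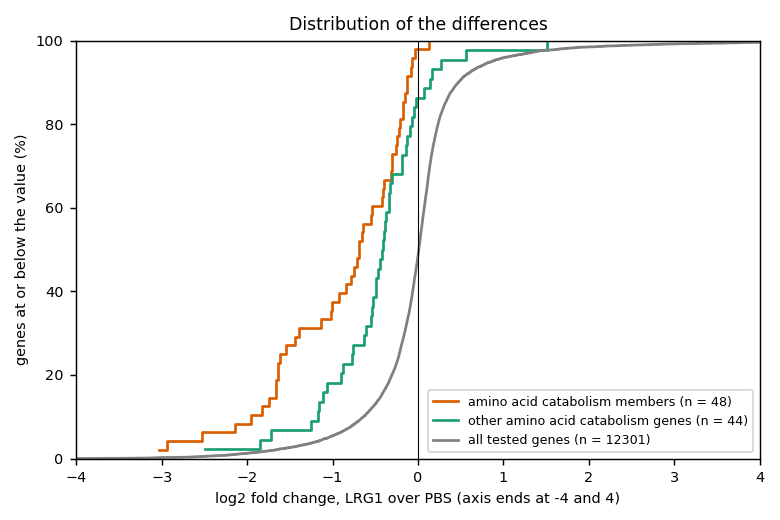
Cumulative share of genes (vertical axis, percent) at or below each log2 fold change (LRG1 over PBS, horizontal axis) for the 48 tested genes of the set, 44 other genes of amino acid breakdown and all 12301 tested genes. The curve of the set lies left of the others over most of its range, with medians of -0.69, -0.41 and 0.0093.

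Among 13 regulators of liver amino acid enzymes, 9 fell below the PBS level past the threshold and 1 rose above it. Their median log2 fold change was -0.27, and of all tested genes 25.8% were lower and 25.5% higher. This list too was chosen with earlier results of these data known. Klf15, a transcription factor known to activate amino acid breakdown genes in fasting, had 2.89, 2.29 and 2.52 CPM in LRG1 replicates 1 to 3, against 10.6, 9.16 and 10.4 CPM in PBS replicates 1 to 3 (log2 fold change -1.97, SE 0.14, adjusted p = 1.97e-11). Onecut1, a liver-enriched homeodomain factor, had 1.34, 1.73 and 1.56 CPM in LRG1 replicates 1 to 3, against 8.10, 7.92 and 7.11 CPM in PBS replicates 1 to 3 (log2 fold change -2.31, SE 0.16, adjusted p = 1.52e-11). The highest values past the threshold were those of Creb1, which binds the cyclic AMP response element, at 0.20, and of Atf4, a factor of the amino acid response, at -0.21. All LRG1 values were above all PBS values for Creb1 and below them for the other 3.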

How the data were processed

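RNA-seq counts of 3 LRG1 and 3 PBS samples were used, all with a group from their titles. Poly(A)-selected, strand-marked libraries were read from a single end, per the labels' protocols. The authors deposited raw read counts per gene symbol, made with bcl2fastq, TopHat2 and HTSeq on mm9, per the submitters' processing notes. For their versions, the annotation and the strand setting, the sources used here give nothing. The last 5 rows of each file, HTSeq summary rows, were left out. Of uniquely aligned reads 8.96 to 10.3% fell in no gene, and non-unique alignments were 58.2 to 59.3% of row totals, so genes with close copies may have lost reads.

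Genes were kept by filterByExpr (minimum count 10), which left 12301 genes with 99.95% of counts. Treatment was tested with the quasi-likelihood F test of edgeR 4.0.16 under R 4.3.3, with TMM scaling and p-values adjusted by Benjamini-Hochberg over all tested genes, threshold 0.05. "Adjusted p" refers to this test. SE was derived from the F statistic. CPM was computed from the deposited counts with TMM-scaled library sizes of the tested genes. Depth limits low genes: 12 tested members had under 100 reads in some library, and counting error alone is covered by floors. Exon lengths, strand overlaps and shared 50-base windows came from GENCODE M21 (GRCm38), matched by symbol. The code of the test was checked on simulated counts with a common dispersion for all genes, a simpler setting than these data.

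Members and lists were chosen with earlier results of these data known. Values per library are given, by role group, for the 3 called members with the largest absolute log2 fold change and the tested one with the smallest, and for any member called in the rarer direction. From each list outside the set, the 2 highest and 2 lowest called genes are named. Oat, Plbd2, 0610005C13Rik, Zfp740, B3gnt8, Col1a1 and Cps1 were added after their values were seen, as were per-library values of Gpt2, Hpd and Haao. Some genes of these lists and 1 of the motifs searched are not reported here. Alternatives were DESeq2 1.42.0, its size factors, upper-quartile factors, limma-voom (limma 3.58.1), other filters, a replicate block and each library left out.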

Additional observations from a re-analysis of the deposited data

How the results depend on the processing

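Of the 42 amino acid catabolism genes called lower, 36 kept the call in each of 13 alternatives, 6 (Fah, Haao, Bcat2, Dbt, Mccc1 and Prodh2) lost it in at least 1, and none of the tested genes changed direction past the threshold. The count of lower genes was 37 to 42 over all alternatives, 37 with DESeq2, and 37 to 40 with a library left out. The count of higher genes was 0 in the alternatives that kept all libraries and 0 to 1 with a library left out, the 1 being Gcsh without PBS replicate 2. For the other pathway genes 32 to 34 were lower and 3 to 4 higher, and over all genes the calls numbered 5594 to 6592. No scaling moved the median log2 fold change of all genes by more than 0.0035. Each of these scalings takes most genes as unchanged, so this cannot show whether the level of all genes shifted. With 7 to 9 reads per library, as for Sds with LRG1, counting error limits the size of the fold change. Deviations from the group means of same-numbered samples correlated at -0.123, -0.0142 and -0.119, and LRG1 replicate 1 correlated best with PBS replicate 3 (0.141). Deviations within an arm depend on each other, so these values show no sign of pairing by replicate number but cannot exclude it. A replicate block gave 38 lower and 0 higher genes in the set and 33 and 3 among the other pathway genes. Over all 12301 tested genes, the block gave 2984 lower and 2906 higher, and DESeq2 gave 2876 lower and 2718 higher.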

Other observations

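A few further genes are given as values, chosen after these were seen, so that they stand for no pathway. Cbs and Cth, which pass homocysteine sulfur to cysteine, had log2 fold changes of -1.85 and -0.38, and Suox, sulfite oxidase, which completes cysteine oxidation after Cdo1, had -0.45. Tst, a mitochondrial sulfurtransferase, had 32.4 ± 1.198 CPM with LRG1 and 72.7 ± 3.49 CPM with PBS (-1.17), while Mpst, mercaptopyruvate sulfurtransferase, had -0.42. Shmt1, the cytosolic enzyme that interconverts serine and glycine, had 20.1 ± 1.43 CPM with LRG1 and 66.3 ± 0.937 CPM with PBS (log2 fold change -1.72, SE 0.060, adjusted p = 5.73e-17), and its mitochondrial counterpart Shmt2 had 106 ± 4.35 CPM with LRG1 and 147 ± 3.67 CPM with PBS (-0.47). The 95% intervals of these isozymes, -1.85 to -1.60 for Shmt1 and -0.56 to -0.38 for Shmt2, did not overlap, and the difference was not tested.

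Glud1, glutamate dehydrogenase, which releases the nitrogen gathered by transaminases as ammonia, had 1040.1 ± 28.3 CPM with LRG1 and 2255 ± 71.9 CPM with PBS, a log2 fold change of -1.12. The propionyl-CoA steps shared by valine and isoleucine had smaller values, -0.34 for Pcca, -0.49 for Pccb and -0.41 for Mcee, while Mut did not pass (-0.14, adjusted p = 0.0505). Gstz1, maleylacetoacetate isomerase of tyrosine breakdown, is a symbol close to the unmatched Gstz1b and was not counted as a member. It had 43.5, 40.3 and 43.6 CPM in LRG1 replicates 1 to 3, against 65.5, 65.3 and 68.7 CPM in PBS replicates 1 to 3 (log2 fold change -0.65, SE 0.053, adjusted p = 2.86e-10), with no overlap between the groups.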
